A study of Homo sapiens with 9 samples.

Results

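The 9 genes examined here, GAPDH, ACTB, B2M, PPIA, HPRT1, TBP, GUSB, YWHAZ and TFRC, are among those most often used as internal references in quantitative PCR. They were taken by gene symbol, with earlier results of these data known, and each was found on 1 row that was joined with no other gene, so that they make up 9 of the 31080 genes or joined features in the files. Cells of the human lung cancer line A549 received for 48 h either scrambled siRNA (siCtrl) or 1 of 2 siRNAs against CCNK (siCyclinK#1 and siCyclinK#2), and total RNA of 3 libraries per group was sequenced. CCNK encodes cyclin K, the partner of the transcription kinases CDK12 and CDK13. All 9 libraries come from transfected cells of the same line, with no untransfected group analysed here. The libraries of a group are described as independent samples, and the study describes its data in general as coming from independent experiments. Whether these libraries came from separate cultures is not stated for them, so the p-values measure the spread between these samples, which may be technical.

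A reference gene is measured beside the gene of interest to correct for unequal input, and the correction holds only if the reference itself stays level across the conditions compared. Candidates are therefore drawn from unlike processes, so that a change in a single pathway does not move all of them. The study's own quantitative PCR used GAPDH for this purpose. The question here was how high each of the 9 mRNAs was, how far replicates of it scattered, and whether it differed between the 3 groups.

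The level of a gene is given as FPKM, a count of sequenced fragments divided by gene length and by library depth. CCNK, the siRNA target, was at 6.90, 7.06 and 7.10 FPKM in the siCtrl libraries, at 0.891, 0.816 and 0.720 with siCyclinK#1 and at 0.809, 0.920 and 0.802 with siCyclinK#2, so that all 6 siCyclinK libraries lay below all 3 siCtrl libraries. The recovered depth was 31333749 to 33767961 reads per library, and the 9 genes had from 210 reads (TBP, lowest library) to 257030 reads (GAPDH, highest library). Of the epithelial keratins, KRT8 had means of 55.3 FPKM with siCtrl, 94.9 with siCyclinK#1 and 97.4 with siCyclinK#2, and KRT18 of 83.2, 74.1 and 90.2. CDH1 had means of 1.64, 3.88 and 1.71, and KRT19 and EPCAM, also epithelial markers, were at or near 0, with highest values of 0.108 and 0.279. Of the 5 markers of other cell types in the files, PTPRC, PECAM1 and COL1A2 were at or near 0 in every library, CD68 had means of 30.3, 32.2 and 37.9 and COL1A1 had means of 2.03 with siCtrl, 14 with siCyclinK#1 and 3.19 with siCyclinK#2. The summed level of these 5 was 31.9 to 47.4, against 132 to 193 for the 5 epithelial markers. The part of these marker differences in the results below was not tested. Mitochondrially encoded genes held 25.7% to 26.4% of summed FPKM with siCtrl, 24.7% to 25.1% with siCyclinK#1 and 22.5% to 23.0% with siCyclinK#2. In bulk RNA fewer cells of a kind and less RNA per cell cannot be told apart, and FPKM gives no level per cell.

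The 9 mRNAs covered a wide range of levels. In siCtrl cells the order of mean FPKM was GAPDH, PPIA, ACTB, HPRT1, TFRC, B2M, YWHAZ, GUSB and TBP, from 2570 ± 29.9 (SD, n = 3) for GAPDH down to 5.40 ± 0.0648 (SD, n = 3) for TBP. GAPDH was the ninth most abundant of 21048 genes in each of the 9 libraries, whereas TBP ranked between 5691 and 8473. TFRC and B2M, neighbours in this order, overlapped in siCtrl libraries, and the lowest B2M library (62.7) and the highest YWHAZ library (62.7) were equal to the digits given. In both siCyclinK groups ACTB stood above PPIA, in second place. The order depends on the length used. The FPKM values fit the length of all annotated exons of a gene laid together, which is 3.57 times that of the main transcript for B2M (6079 against 1705 bases) and 1.15 times for HPRT1 (1624 against 1407 bases). Rescaled to the main transcript, B2M with siCtrl was at 235, above HPRT1 at 124, TFRC at 117 and YWHAZ at 101. Comparisons between groups use the same length of a gene in every library.

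**Figure D1:**
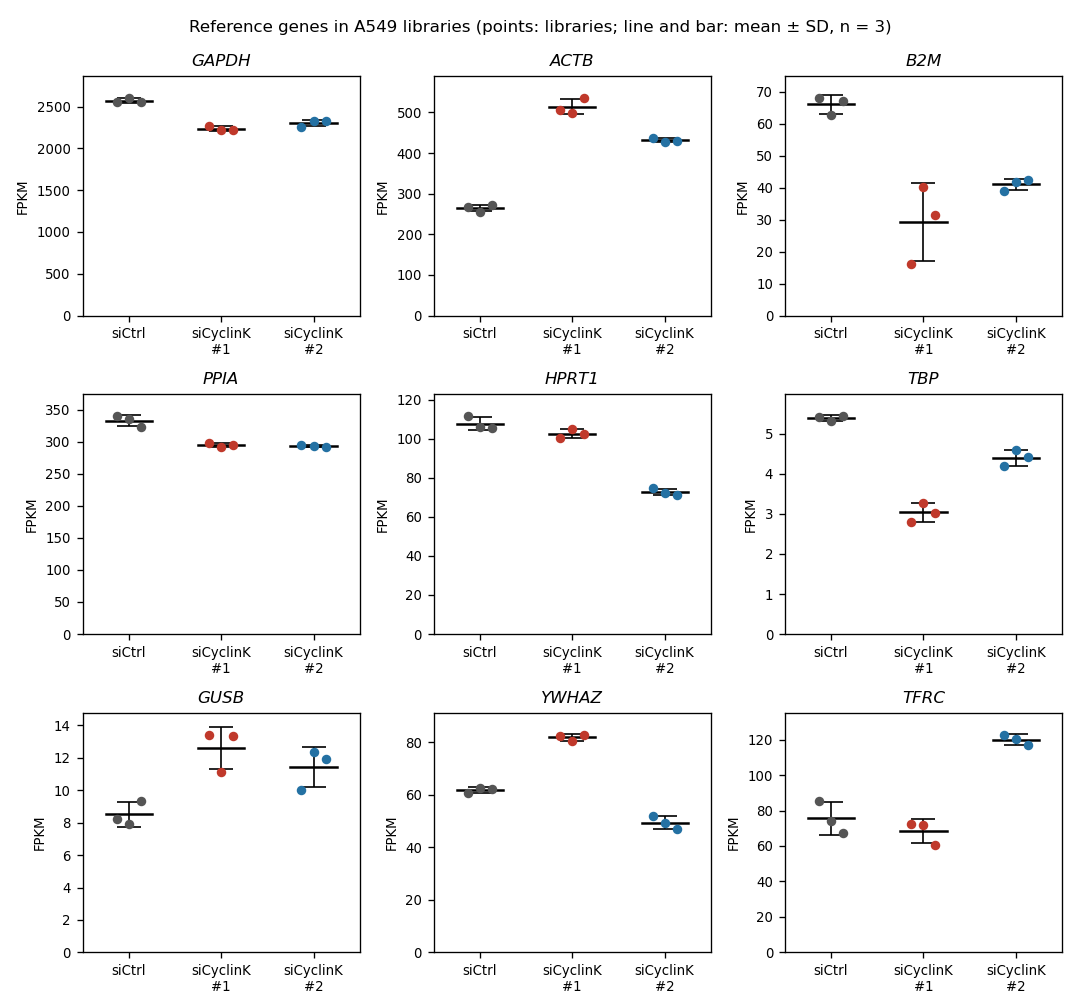
FPKM of each reference gene in the 9 libraries, 1 panel per gene with its own linear axis from 0. Points are libraries, and lines and bars are the mean ± SD of 3 libraries. ACTB rose in both siCyclinK groups, more with siCyclinK#1, and GAPDH and PPIA were slightly lower in both. HPRT1, TBP, YWHAZ and TFRC were placed differently by the 2 siRNAs.

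Most of the 9 genes differed between groups by more than their replicates scattered. Against siCtrl, 7 of 9 passed the test with siCyclinK#1 (3 higher and 4 lower) and 8 of 9 with siCyclinK#2 (3 higher and 5 lower), at an adjusted p under 0.05 from limma over all 21048 genes. By direction, 26.8% of all genes were higher and 18.1% lower with siCyclinK#1, and 19.8% higher and 15.2% lower with siCyclinK#2. The members' counts stand against a high background, since 44.8% of all tested genes passed with siCyclinK#1 and 34.9% with siCyclinK#2, and 64.3% and 53.5% of the 11243 genes whose mean FPKM was 1 or more, which all 9 members reached. At a fold change over 3 with an unadjusted p under 0.01, the thresholds of the study's methods, 0 of 9 were called in either comparison. Only 4.67% and 1.94% of all genes passed there. For 9 genes a count of 0 therefore does not set the members apart. Both comparisons share the siCtrl libraries.

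**Figure D2:**
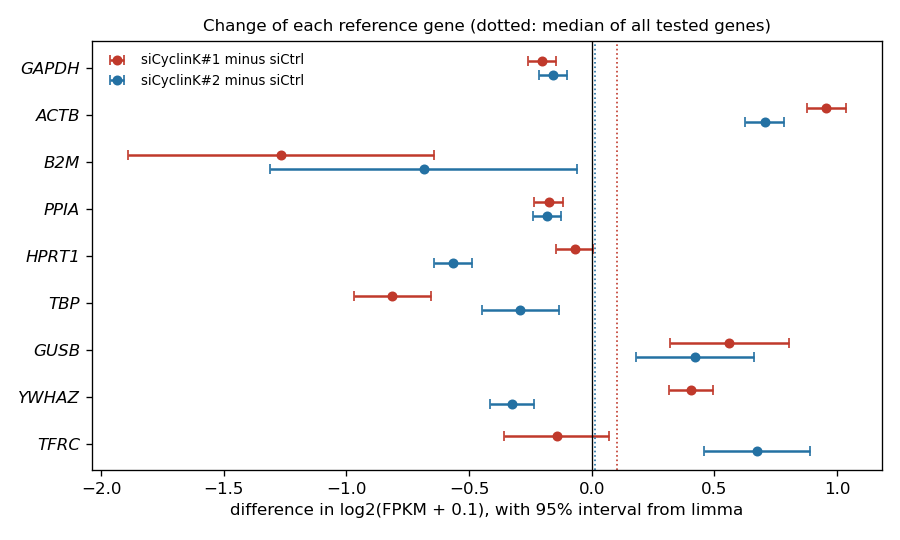
Difference of each siCyclinK group from siCtrl in log2(FPKM + 0.1), with the 95% interval from limma. Dotted lines are the medians of all tested genes, 0.10 for siCyclinK#1 and 0.01 for siCyclinK#2. The longest intervals belong to B2M, and those of YWHAZ lie on opposite sides of 0.

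GAPDH (ENSG00000111640, chr12:6533927-6538374, plus strand of GRCh38, as are the positions of the other members) encodes the glycolytic enzyme glyceraldehyde-3-phosphate dehydrogenase. It was at 2553, 2605 and 2553 FPKM with siCtrl, at 2267, 2222 and 2214 with siCyclinK#1 and at 2260, 2327 and 2324 with siCyclinK#2. Every siCyclinK library lay below every siCtrl library, yet the means were still 86.9% and 89.6% of siCtrl. On the log2(FPKM + 0.1) scale the difference was -0.20 (SE 0.02, adjusted p = 0.000168 from limma) with siCyclinK#1 and -0.16 (SE 0.02, adjusted p = 0.0011) with siCyclinK#2. The siRNAs differed by -0.04 (95% interval -0.10 to 0.01), which did not pass the test. PPIA (ENSG00000196262, chr7:44796680-44824564, plus strand) encodes cyclophilin A, an abundant peptidyl-prolyl isomerase, and behaved much like GAPDH. Its FPKM was 339.9, 334.9 and 323.4 with siCtrl, 298, 292 and 294 with siCyclinK#1 and 295, 293 and 292 with siCyclinK#2. The 6 siCyclinK libraries spanned less than the 3 siCtrl libraries and lay below them, with means at 88.6% and 88.1% of siCtrl. Its log2 difference was -0.17 (SE 0.03, adjusted p = 0.000531 from limma) and -0.18 (SE 0.03, adjusted p = 0.000612), and the siRNAs differed by 0.01 (95% interval -0.05 to 0.07). The size of such small changes depends on the scaling between libraries. With both siRNAs as 1 group, GAPDH and PPIA were each at -0.18. After median-ratio rescaling both were at -0.23 and still passed (adjusted p = 0.00643 and 0.00296 from limma). Under quantile normalization, which moves the median of all genes for siCyclinK#1 from 0.10 to -0.02, GAPDH showed 0 difference because its rank was the same in every library, PPIA was at -0.05 and -0.06, and neither passed the test.

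ACTB (ENSG00000075624, chr7:5527147-5563784, minus strand) encodes beta-actin, a main component of the actin cytoskeleton, and rose most. It was at 267, 255 and 271 FPKM with siCtrl, at 507, 499 and 536 with siCyclinK#1 and at 438, 427 and 431 with siCyclinK#2. The groups did not overlap, and the means were 194% and 163% of siCtrl. On the log2 scale the difference was 0.96 (SE 0.04, adjusted p = 1.38e-07 from limma) with siCyclinK#1 and 0.71 (SE 0.04, adjusted p = 1.48e-06) with siCyclinK#2. ACTB was higher with siCyclinK#1 than with siCyclinK#2 by 0.25 (SE 0.04, adjusted p = 0.000784). ACTG1, which encodes the near-identical gamma-actin, was at 573 ± 21.8, 797 ± 28.95 and 632 ± 8.27 FPKM (SD, n = 3) in the same order of groups. Its log2 difference was 0.48 with siCyclinK#1 (adjusted p = 9.66e-06 from limma) and 0.14 with siCyclinK#2 (adjusted p = 0.0164). ACTB per unit of ACTG1 went from 0.462 ± 0.0246 to 0.645 ± 0.000902 and 0.684 ± 0.0172 (SD, n = 3), higher in every siCyclinK library than in any siCtrl library. The authors' counting could split reads between the actin genes, and their values are uncertain to that extent.

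Transcription of actin genes is a textbook case of control by serum response factor, which binds the CArG box. The ACTG1 promoter is therefore shown, from 210 bases before to 10 bases after the start in the RefSeq annotation of GRCh38.p14, chr17:81512790-81513009, minus strand, with a CArG box and a CCAAT box, which do not overlap, in capitals.
ACTG1: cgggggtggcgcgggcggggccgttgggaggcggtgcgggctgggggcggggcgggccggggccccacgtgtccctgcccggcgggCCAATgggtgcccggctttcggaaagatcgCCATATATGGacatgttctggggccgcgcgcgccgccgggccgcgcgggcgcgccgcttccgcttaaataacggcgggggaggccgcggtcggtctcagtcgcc
Over windows from 250 bases before to 50 bases after the start, a CArG box on either strand was found in 1.29% of 35116 RefSeq promoters. Promoters of ACTG1 and of 7 of the 9 members, all but ACTB and YWHAZ, were matched in this table. None of the 7 held a CArG box, and ACTB was not among them. A match describes the letters of a window and not a bound site.

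HPRT1 (ENSG00000165704, chrX:134460153-134520513, plus strand) encodes hypoxanthine phosphoribosyltransferase, the purine salvage enzyme, and was lower with siCyclinK#2. Its FPKM was 112, 106 and 106 with siCtrl, 100.4, 105 and 102 with siCyclinK#1 and 74.6, 72.0 and 71.3 with siCyclinK#2. The siCyclinK#2 libraries lay far below the other 6, at 67.5% of the siCtrl mean. The log2 difference from siCtrl was -0.57 (SE 0.03, adjusted p = 4.01e-06 from limma) with siCyclinK#2 and -0.07 (SE 0.03, adjusted p = 0.13) with siCyclinK#1. The direct difference between the siRNAs was 0.50 (SE 0.03, adjusted p = 1.33e-05). The small value with siCyclinK#1 passed the test after median-ratio rescaling (-0.13, adjusted p = 0.0174) and turned to 0.06 under quantile normalization. GUSB (ENSG00000169919, chr7:65960684-65982314, minus strand) encodes the lysosomal hydrolase beta-glucuronidase. It was at 8.25, 7.93 and 9.36 FPKM with siCtrl, at 13.4, 11.1 and 13.3 with siCyclinK#1 and at 10.04, 12.4 and 11.9 with siCyclinK#2. All siCyclinK libraries were higher than all siCtrl libraries, with means at 148% and 135% of siCtrl. The difference was 0.56 (SE 0.11, adjusted p = 0.00229 from limma) and 0.42 (SE 0.11, adjusted p = 0.0137) on the log2 scale. The call with siCyclinK#2 was lost without siCtrl replicate 2 (adjusted p = 0.0506) and without siCyclinK#2 replicate 2 (adjusted p = 0.051).

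B2M (ENSG00000166710, chr15:44711477-44718877, plus strand) encodes beta-2-microglobulin, the light chain of MHC class I, and TFRC (ENSG00000072274, chr3:196027183-196082189, minus strand) encodes the transferrin receptor, which takes up iron. B2M was at 68.0, 62.7 and 67.2 FPKM with siCtrl, at 16.1, 40.3 and 31.5 with siCyclinK#1 and at 39.0, 41.7 and 42.4 with siCyclinK#2. All siCyclinK libraries were below all siCtrl libraries, but siCyclinK#1 replicate 1 stood well below its fellows. The mean with siCyclinK#1 was 29.3 ± 12.2 (SD, n = 3), or 44.4% of siCtrl, and with siCyclinK#2 41.0 ± 1.79 (SD, n = 3), or 62.1%. The log2 difference was -1.27 (SE 0.27, adjusted p = 0.00488 from limma) with siCyclinK#1 and -0.69 (SE 0.27, adjusted p = 0.0879) with siCyclinK#2. The SE comes from 1 spread shared by the 3 groups. Their SD of log2 FPKM was 0.0637 with siCtrl, 0.684 with siCyclinK#1 and 0.0639 with siCyclinK#2. Without siCyclinK#1 replicate 1 the log2 differences from siCtrl became -0.89 (adjusted p = 0.000233) and -0.69 (adjusted p = 0.000655). The difference between the siRNAs fell in size from -0.58 to -0.20, with neither passing the test. Without siCyclinK#1 replicate 2 the difference from siCtrl was -1.54 (adjusted p = 0.00132), the siCyclinK#2 comparison passed (adjusted p = 0.0391) and the siRNAs differed by -0.86 (adjusted p = 0.0334). TFRC rose with siCyclinK#2. Its FPKM was 85.3, 74.0 and 67.3 with siCtrl, 72.6, 71.9 and 60.3 with siCyclinK#1 and 123, 120.2 and 117 with siCyclinK#2. The siCtrl and siCyclinK#1 libraries overlapped and both lay well below siCyclinK#2. The log2 difference was 0.67 (SE 0.09, adjusted p = 0.000579 from limma) with siCyclinK#2 and -0.14 (95% interval -0.36 to 0.07, adjusted p = 0.261) with siCyclinK#1, and the siRNAs differed by -0.82 (SE 0.09, adjusted p = 0.000266).

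TBP (ENSG00000112592, chr6:170554302-170572870, plus strand) encodes the TATA-binding protein, which nucleates transcription complexes at promoters. It was at 5.43, 5.33 and 5.44 FPKM with siCtrl, at 2.81, 3.27 and 3.03 with siCyclinK#1 and at 4.19, 4.60 and 4.41 with siCyclinK#2. The 3 groups did not overlap, and the means were 56.3% and 81.5% of siCtrl. The log2 difference was -0.81 (SE 0.07, adjusted p = 1.76e-05 from limma) and -0.29 (SE 0.07, adjusted p = 0.0105), and the siRNAs differed by -0.52 (SE 0.07, adjusted p = 0.000574). YWHAZ (ENSG00000164924) encodes the zeta form of the 14-3-3 proteins, adaptors that bind phosphorylated partners. It was at 60.8, 62.7 and 62.2 FPKM with siCtrl, at 82.4, 80.5 and 83.0 with siCyclinK#1 and at 52.1, 49.4 and 46.9 with siCyclinK#2. The 3 groups were again separate, with siCyclinK#1 above siCtrl at 132% and siCyclinK#2 below it at 79.9%. The log2 difference was 0.40 (SE 0.04, adjusted p = 4.25e-05 from limma) with siCyclinK#1 and -0.32 (SE 0.04, adjusted p = 0.000265) with siCyclinK#2, and the siRNAs differed by 0.73 (SE 0.04, adjusted p = 4.08e-06).

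For TBP and B2M the promoters are shown because, of the members that were lower in all 6 siCyclinK libraries, these 2 lay farthest from siCtrl, in the same 220-base frame of RefSeq on GRCh38.p14, both on the plus strand, chr6:170554159-170554378 for TBP and chr15:44711307-44711526 for B2M, with the CCAAT box, or its complement ATTGG, in capitals.
TBP: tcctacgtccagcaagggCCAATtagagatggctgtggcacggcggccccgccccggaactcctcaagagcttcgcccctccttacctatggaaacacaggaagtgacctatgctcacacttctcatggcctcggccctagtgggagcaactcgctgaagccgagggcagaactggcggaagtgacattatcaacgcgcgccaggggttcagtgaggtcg
B2M: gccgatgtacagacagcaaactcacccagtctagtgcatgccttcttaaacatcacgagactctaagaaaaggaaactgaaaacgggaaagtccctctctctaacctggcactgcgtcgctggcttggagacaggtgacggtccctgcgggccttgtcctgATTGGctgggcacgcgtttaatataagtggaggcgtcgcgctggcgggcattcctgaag
The letters CCAAT on either strand were in the 300-base windows of B2M, PPIA and TBP and in 34.6% of all 35116 promoters. TATAAA was in those of PPIA and TFRC and in 7.33% of all. GGGCGG, the GC box, or its complement CCGCCC was in 6 of the 7 matched members, all but B2M, and in 45.0% of all. Of these letters, none was in the windows of all 4 genes that were lower with siCyclinK#1 (GAPDH, B2M, PPIA and TBP), which says only that the letters are not in these windows.

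When the siRNAs were compared with each other, 5 of 9 genes passed the test, namely ACTB, HPRT1, TBP, YWHAZ and TFRC, against 29.4% of all tested genes and 44.5% of those at a mean FPKM of 1 or more. At the 3-fold threshold 0 of 9 were called (1.53%). Of the 5, ACTB, HPRT1 and YWHAZ were higher with siCyclinK#1 (17.1% of all genes) and TBP and TFRC lower (12.3%). The same 5 were the members whose siCyclinK#1 and siCyclinK#2 libraries did not overlap (42.7% of all genes). GAPDH, PPIA, GUSB and B2M did not pass, with intervals of -0.10 to 0.01, -0.05 to 0.07, -0.10 to 0.38 and -1.21 to 0.04 on the log2 scale. An siRNA can lower other mRNAs through its seed, the bases 2 to 8 of the guide strand, which pair with sites in 3′ UTRs. The site for the siCyclinK#1 seed, GTGATAA, was in the 3′ UTR of 0 of the 9 main transcripts, against 9.36% of 11309 genes. The site for the siCyclinK#2 seed, TACAGGT, was in 1 of 9, YWHAZ, against 11.5% of genes. YWHAZ, lower with siCyclinK#2, has a 3′ UTR of 4168 bases against a median of 1086, and the part of the site in its level was not tested.

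With both siRNAs taken as 1 group of 6 libraries, 6 of 9 genes passed against siCtrl (28.6% of all tested genes, 42.0% of those at a mean FPKM of 1 or more). At the 3-fold threshold 0 of 9 were called (2.29%). ACTB and GUSB were higher by 0.83 and 0.49 on the log2 scale (adjusted p = 7.93e-05 and 0.00591 from limma). GAPDH, PPIA, TBP and B2M were lower, with log2 differences of -0.18, -0.18, -0.55 and -0.98 and adjusted p of 0.0179, 0.00978, 0.0309 and 0.0249. HPRT1, YWHAZ and TFRC were at -0.32 (adjusted p = 0.135), 0.04 (adjusted p = 0.911) and 0.27 (adjusted p = 0.453). This fit averages the 2 siRNAs and counts their difference as scatter, so these values do not show unchanged genes. YWHAZ passed with each siRNA in opposite directions (0.40 and -0.32), and HPRT1 and TFRC passed with siCyclinK#2. For 7 of 9 genes the 6 siCyclinK libraries lay on 1 side of the 3 siCtrl libraries (32.6% of all genes), and for these 7 the exact two-sided permutation p was 0.0238, the smallest that 6 libraries against 3 allow here. Per siRNA the groups did not overlap for 8 and 9 of 9 (53.5% and 46.8% of all genes), and 3 against 3 allow no exact p below 0.1. The count of 6 depended on each control library. Without siCtrl replicate 1 it was 2 (ACTB and GUSB), and without replicate 2 or 3 it was 3 (ACTB, PPIA and GUSB). TBP also lost its call without siCyclinK#1 replicate 2 or 3 (adjusted p = 0.0562 and 0.0536). In a fit blocked on the replicate number, GAPDH and TBP did not pass (adjusted p = 0.0624 and 0.0691).

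As references over all 9 libraries, the genes fell into an even pair and a scattered remainder. The SD of log2 FPKM over the 9 libraries was 0.0917 for PPIA and 0.0937 for GAPDH, followed by 0.27 for HPRT1, 0.286 for GUSB, 0.319 for YWHAZ, 0.371 for TBP, 0.396 for TFRC, 0.431 for ACTB and 0.65 for B2M. The median gene of those at a mean FPKM of 1 or more had 0.295, so that 4 of 9 members were more even than it. The mean SD of the log2 ratio of a member to each of the other 8, a measure free of library scaling, gave the same order. Within groups most members were tight, with a median SD of 0.0475 against 0.106 for all 11243 genes, but TFRC (0.134), GUSB (0.148) and B2M (0.398) lay above that value. The 11243 genes were not matched to the members in level, and the part of level in this contrast was not tested. Between groups the median range of the members' means was 0.73 against 0.546, with GAPDH (0.202) and PPIA (0.182) below that value and the other 7 above it. ACTB showed both sides, with a within-group SD lower than that of all but 9.01% of genes and a range of group means larger than that of 79.0% of genes. GAPDH and PPIA held the first 2 places under median-ratio rescaling, quantile normalization and without each single library, in either order. Quantile normalization gives a gene of constant rank an SD of 0, as it did for GAPDH, and PPIA ranked between 46 and 54. Their places under that setting therefore restate their ranks and are no separate check. Behind them, neighbours changed places. HPRT1 and GUSB swapped under both scalings and without siCtrl replicate 1 or 2 or siCyclinK#1 replicate 1 or 3, and TBP and TFRC under both scalings and without each siCyclinK#2 library. YWHAZ stood below GUSB without siCyclinK#2 replicate 3, TFRC above ACTB without siCtrl replicate 1 or 2, and without siCyclinK#1 replicate 1 B2M, at 0.419, below ACTB, at 0.435.

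**Figure D3:**
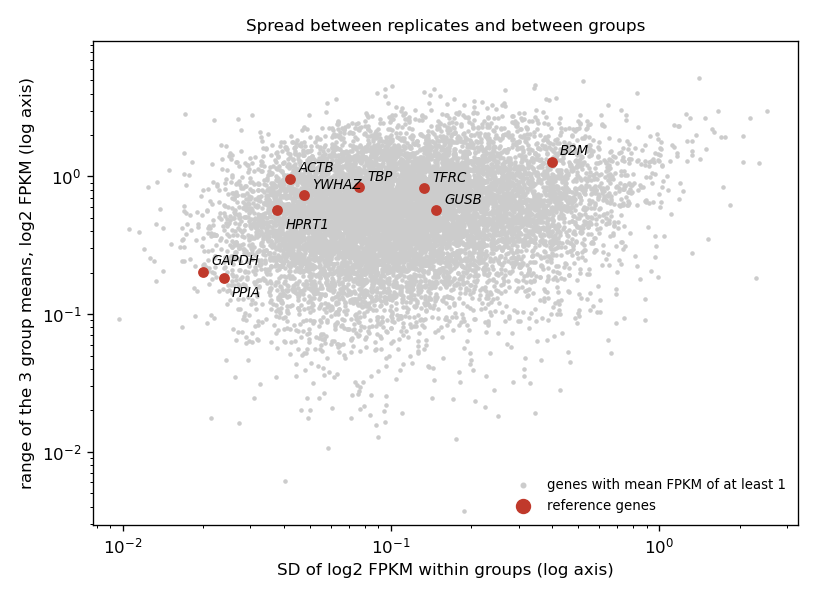
Spread of log2 FPKM within groups (SD, horizontal) against the range of the 3 group means (vertical), both on log axes. Grey points are the 11243 genes at a mean FPKM of 1 or more and red points the 9 reference genes. GAPDH and PPIA lie at the lower left, ACTB combines a small SD within groups with a wide range between them, and B2M lies at the upper right.

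The choice of reference therefore set the size of a change measured against it. PPIA per unit of GAPDH was 0.126 to 0.133 in all 9 libraries. ACTB per unit of GAPDH was 0.103 ± 0.00443 with siCtrl, 0.23 ± 0.0103 with siCyclinK#1 and 0.187 ± 0.00547 with siCyclinK#2 (SD, n = 3), and TFRC per unit of HPRT1 was 0.7 ± 0.064, 0.666 ± 0.0686 and 1.65 ± 0.0153 (SD, n = 3). For CCND1, which encodes cyclin D1 and was 72.6 ± 0.546, 16.7 ± 0.329 and 20.7 ± 0.685 FPKM (SD, n = 3), the level left was 26.5% with siCyclinK#1 and 31.8% with siCyclinK#2 relative to GAPDH. Relative to PPIA it was 26.0% and 32.3%, relative to ACTB 11.9% and 17.5%, and relative to B2M 55.6% and 45.8%. CCNK left was 13.2% and 13.4% relative to GAPDH, 5.92% and 7.36% relative to ACTB and 27.7% and 19.3% relative to B2M. With 6 of the 9 references less CCNK and less CCND1 were left with siCyclinK#1 than with siCyclinK#2, and with B2M, TBP or TFRC more. Part of this order rested on single libraries. Without siCyclinK#1 replicate 1 CCND1 left relative to B2M was 42.9% and 45.8%, so that the order turned, and CCNK left was 20.2% and 19.3%. For CCNK the order also turned relative to GAPDH without siCyclinK#1 replicate 3 (13.9% and 13.4%) or siCyclinK#2 replicate 2 (13.2% and 12.9%), and relative to PPIA without siCyclinK#1 replicate 3 (13.7% and 13.6%). For CCNK with no reference the siRNAs differed by -0.06 on the log2 scale (95% interval -0.28 to 0.17), which did not pass the test.

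**Figure D4:**
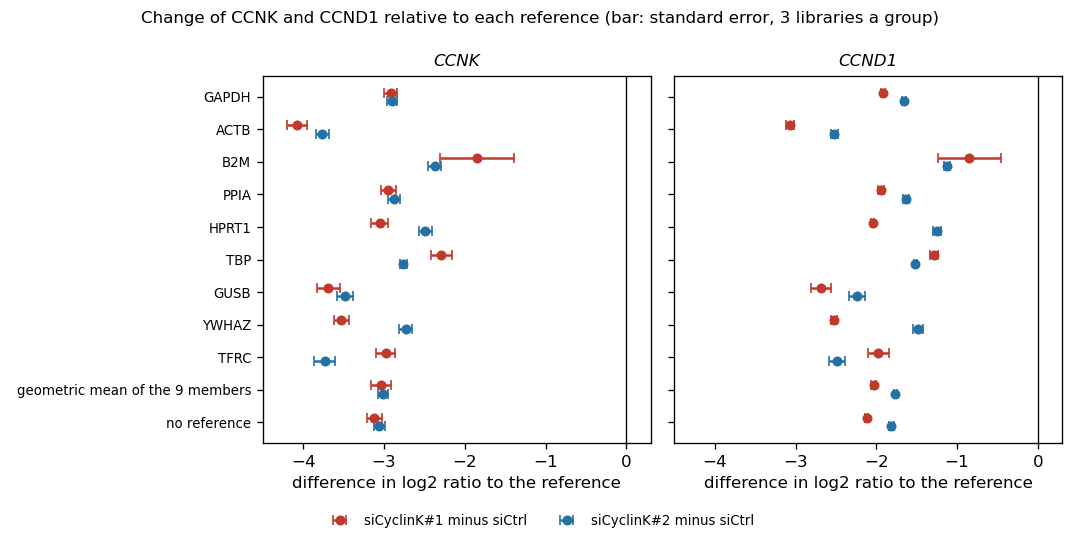
Difference between each siCyclinK group and siCtrl in the log2 ratio of CCNK (left) and CCND1 (right) to each reference gene, to the geometric mean of the 9 and with no reference. Bars are standard errors over 3 libraries a group. All values are below 0, and those against ACTB and B2M lie farthest apart for siCyclinK#1.

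The geometric mean of the 9 was 98.1% to 102% of its siCtrl mean in siCtrl libraries, 89.4% to 98.1% with siCyclinK#1 and 95.6% to 98.4% with siCyclinK#2. Against it, CCND1 left was 24.5% and 29.4%, close to the 23.1% and 28.5% with no reference. For each of the 9 references, the geometric mean and no reference, CCNK and CCND1 were lower in all 6 siCyclinK libraries (exact two-sided permutation p = 0.0238 for each of the 22 tests, unadjusted, the smallest possible). The 22 tests share the same 9 libraries and the same 2 genes, of which CCNK is the siRNA target, so they are not separate results.

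Several members have pseudogenes or related genes whose reads the authors' counting could share with them. By symbol, the files hold 33 pseudogenes or related genes of PPIA. Their summed FPKM reached at most 11.5% of PPIA in any library, with PPIAP22 the highest at 17.7 to 23.8. The 27 of GAPDH reached 0.373%, the 5 of YWHAZ 3.38% and the 5 of ACTB 0.394%. The 4 of GUSB, the member with the second lowest level, reached 31.3%, with GUSBP2 at 0.725 to 1.55 FPKM. HPRT1, B2M, TBP and TFRC had 0 by this rule. For GAPDH, PPIA and GUSB, 1 more copy each was joined with another gene and left out of these sums. By these sums GUSB and PPIA values are the most exposed to such sharing, which was not tested. The sum for ACTB leaves out ACTG1, whose mean with siCtrl was 573 FPKM against 265 for ACTB. ACTB may therefore be more exposed than its 0.394% shows.

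Other genes used as references fell more often than they rose. With both siRNAs as 1 group, 6 of 51 tested genes of a list of further reference genes were higher and 17 lower, against 17.0% higher and 11.5% lower of all genes, and their median log2 difference was -0.14 against 0.06 for all genes. CDKN1B, which encodes the cell cycle inhibitor p27, fell from 40.1 ± 1.20 FPKM to 17.4 ± 0.950 with siCyclinK#1 and 16.2 ± 1.14 with siCyclinK#2 (SD, n = 3). CASC3, a component of the exon junction complex, rose from 7.77 ± 0.741 to 14.9 ± 1.36 and 15.04 ± 0.847 (SD, n = 3). The lists named here and below share GPI, PGK1, LDHA, ACTG1, PPIB and PPIH, and some of their genes are joined with a neighbour in the files, 8 of the 51 among them.

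With both siRNAs as 1 group, the genes that work with each member moved in both directions in every list but that of the 14-3-3 proteins. Beside GAPDH, glycolysis had 1 of 16 genes higher and 6 lower with both siRNAs as 1 group (17.0% and 11.5% of all genes). With siCyclinK#1 15 of 16 were lower (18.1% of all genes), with a median of -0.55, and with siCyclinK#2 6 of 16 (15.2%), with a median of -0.10. Between the siRNAs 15 of 16 were lower with siCyclinK#1 (12.3%). PFKL, the liver type of phosphofructokinase, rose from 4.05 ± 0.179 FPKM to 13.5 ± 0.321 and 15.5 ± 0.505, and ALDOC, aldolase C, fell from 15.7 ± 1.05 to 6.84 ± 1.34 and 10.8 ± 1.08 (SD, n = 3). Beside ACTB, 3 of 19 actin cytoskeleton genes were higher and 3 lower, near the 17.0% and 11.5% of all genes, with a median of 0.05 against 0.06 for all genes. MYH9, nonmuscle myosin, rose from 93.7 ± 0.365 to 159.8 ± 4.88 and 164 ± 3.05, and TMSB4X, which binds actin monomers, from 486 ± 11.2 to 802 ± 38.3 and 592 ± 9.98 (SD, n = 3). Beside PPIA, 4 of 17 genes of cyclophilins, FKBPs and BSG were higher and 3 lower (17.0% and 11.5% of all genes), with a median of 0.12. FKBP5, a co-chaperone of steroid receptors, rose from 4.33 ± 0.291 to 32.2 ± 1.14 and 17.4 ± 1.05, while PPIF, the mitochondrial cyclophilin, fell from 134.8 ± 5.17 to 20.6 ± 1.78 and 77.5 ± 2.46 (SD, n = 3).

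Beside B2M, 2 of 12 genes of class I antigen presentation were higher and 3 lower, with a median of -0.35. This count and those for HPRT1, TBP and GUSB below stand against 17.0% higher and 11.5% lower of all genes. Whether any list departs from those shares was not tested. CALR, the endoplasmic reticulum chaperone calreticulin, rose from 157 ± 4.03 FPKM to 333 ± 15.7 and 300.3 ± 11, and the peptide transporter TAP2 fell from 11.4 ± 0.203 to 8.06 ± 0.416 and 7.97 ± 0.400 (SD, n = 3). Beside HPRT1, 1 of 15 purine genes was higher and 5 lower, with a median of -0.15. PPAT and ATIC, of purine synthesis, fell from 21.0 ± 0.814 to 9.38 ± 0.295 and 14.8 ± 0.835, and from 61.4 ± 3.69 to 45.5 ± 1.90 and 47.6 ± 0.781 (SD, n = 3). Beside TBP, 5 of 19 genes of TFIID and other TBP partners were higher and 3 lower, with a median of -0.09. The TFIID subunit TAF13 fell from 20.1 ± 0.453 to 7.65 ± 0.642 and 13.6 ± 0.993, and TAF3 rose from 2.96 ± 0.333 to 4.49 ± 0.320 and 6.60 ± 0.619 (SD, n = 3). Beside GUSB, 4 of 19 genes of lysosomal hydrolases and lysosomal membrane proteins were higher and 1 lower, with a median of 0.13. The lower was GLA, alpha-galactosidase A (66.9 ± 1.79 to 38.9 ± 2.04 and 45.3 ± 0.877, SD, n = 3). CTSD, cathepsin D, in a feature joined with AC068580.4 and IFITM10, rose from 11.6 ± 0.846 to 23.6 ± 1.40 and 18.9 ± 0.660 (SD, n = 3).

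Beside YWHAZ, 3 of the 6 other 14-3-3 genes were higher and 0 lower (17.0% and 11.5% of all genes), with a median of 0.40. YWHAG rose from 76.2 ± 2.36 FPKM to 112 ± 3.86 and 132 ± 3.80, and SFN from 62.7 ± 2.09 to 68.4 ± 0.628 and 77.8 ± 3.64 (SD, n = 3), so that both were higher with siCyclinK#2, where YWHAZ was lower. Beside TFRC, 1 of 13 tested genes of iron uptake and storage was higher and 3 lower (17.0% and 11.5% of all genes), with a median of -0.08. SLC39A14, a metal importer, rose from 12.9 ± 0.371 to 29.5 ± 1.14 and 22.5 ± 0.796, and FTL, the ferritin light chain, fell from 5897 ± 73.5 to 5064 ± 50.4 and 4712 ± 41.6 (SD, n = 3). Over these 9 lists, 51 of 136 tested genes (37.5%) passed with both siRNAs as 1 group, between the 28.6% of all genes and the 42.0% of those at a mean FPKM of 1 or more, a level that 133 of the 136 reached. The number passing was 34, 31 and 32 without siCtrl replicate 1, 2 and 3. Over all genes it was 4248, 4257 and 4330, where 6015 passed with all libraries.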

How the data were processed

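The authors sequenced total RNA of 9 A549 libraries as paired reads and deposited FPKM per feature and library, made with StringTie 1.3.3b per the submitters' processing notes. The aligner and filters are not given in the sources used here. Low FPKM values were whole multiples of 1 read at GENCODE 29 exon length (97.974% to 98.439% of low values within 0.03 of a whole number), which gave the read numbers. Groups came from the sample titles.

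Rows of a gene were summed. The 21048 genes that reached an FPKM of 0.1 in 3 or more libraries entered a limma fit (version 3.58.1, R 4.3.3, lmFit then eBayes with a trend) of log2(FPKM + 0.1), with Benjamini-Hochberg adjustment over all of them. Fold changes are on that scale, which understates changes of low genes. Both siRNAs against siCtrl were fitted as 2 groups, the other comparisons as 3 groups sharing 1 spread. Exact permutation tests used scipy 1.17.1. In simulated data where both siRNA groups shifted alike, the fit of both siRNAs recovered 65 of 100 log2 changes of 0.5. It recovered 83 of 100 changes of 1.0 and called 11 unchanged genes. The simulation left out differences between the siRNAs, so it does not cover genes on which they differ. Stability was described on log2 FPKM, with no test. Same-numbered libraries did not deviate together (correlations -0.0711 to 0.0379), so the replicate number was not used as a block. Replicates were not copies of each other (chi-square per degree of freedom 20.0 to 27.4).

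The members and gene lists were chosen with earlier results of these data known. All members were named, with CCNK, CCND1, read-sharing copies, the gene of highest Pearson correlation with each member, the 5 most even genes at a mean FPKM of at least 10, and the largest non-overlapping called changes of each list (3 or 2). Promoters and their coordinates are from RefSeq on GRCh38.p14. Pseudocount, filter, scaling, trend, block, row choice, threshold and single libraries were varied. A limma-voom fit on recovered reads, and the ratios of CCNK and CCND1 to each reference without single libraries, were added after the data were seen. Some single-gene values are not reported here.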

Additional observations from a re-analysis of the deposited data

Results flagged for a closer look

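The direct comparison of the siRNAs passed at an adjusted p under 0.05 from limma for 5 of the 9 reference genes, so that the change from siCtrl depended on the siRNA. As siCyclinK#1 minus siCyclinK#2 on the log2(FPKM + 0.1) scale, the difference was 0.25 for ACTB, 0.50 for HPRT1, -0.52 for TBP, 0.73 for YWHAZ and -0.82 for TFRC, with adjusted p of 0.000784, 1.33e-05, 0.000574, 4.08e-06 and 0.000266. All 5 kept their call without any single library and under each scaling.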

How the results depend on the processing

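With the threshold set at 3-fold and an unadjusted p of 0.01, 0 of 9 members were called in each of the 4 comparisons, where 6, 7, 8 and 5 passed the adjusted threshold. Leaving out single libraries gave 2 to 6 members for both siRNAs against siCtrl, 7 to 7 for siCyclinK#1, 7 to 9 for siCyclinK#2 and 5 to 6 between the siRNAs, 17 to 24 further reference genes and 31 to 50 of the 136 partner genes, where 51 passed with all libraries. The median SD of log2 FPKM over the members was 0.319, 0.368 under quantile normalization and 0.299 to 0.341 without single libraries. Values near 0 changed sign. YWHAZ with both siRNAs (0.04) was -0.0103 after median-ratio rescaling and -0.0358 to 0.129 without single libraries. HPRT1 with siCyclinK#1 was 0.0577 under quantile normalization. PPIA between the siRNAs (0.01) was -0.0026 after median-ratio rescaling and -0.001 to 0.015 without single libraries. With both siRNAs, GAPDH and PPIA also lost their calls with no filter (adjusted p = 0.302 and 0.0518) and without trend (0.0909 and 0.0904), all from limma. With no filter, 4 members were called, and 4 without trend. With the replicate block, 4 members passed with both siRNAs, and 7, 8 and 5 in the other comparisons, as without it, although the libraries share only a number. B2M with siCyclinK#2 passed when only the compared groups were fitted (adjusted p = 0.000158) and in limma-voom on recovered reads (0.0325), as did GAPDH between the siRNAs (0.0477) in the latter. Reads limit TBP most, at 210 to 425 per library.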

Other observations

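Of the 3519 genes at a mean FPKM of 10 or more, PPIA and GAPDH ranked 285 and 303 in evenness over the 9 libraries. The 5 most even genes, picked from these same values and given as a description, were MED13L, a subunit of the Mediator kinase module, FH, fumarate hydratase of the citric acid cycle, MFN2, which fuses mitochondria, BRD2, a reader of acetylated histones, and ATL3, which shapes the endoplasmic reticulum. Their SD of log2 FPKM ran from 0.0247 for MED13L to 0.034 for ATL3. FH lay between 60.4 and 63.6 FPKM in all 9 libraries, and MFN2 between 26.0 and 27.4. HPRT1, GUSB, YWHAZ, TFRC, ACTB and B2M ranked 1942, 2066, 2294, 2699, 2845 and 3258 by the same measure, and the mean of TBP was below 10.

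For the members other than HPRT1, the gene with the most similar pattern over the 9 libraries among 11234 others was named by Pearson correlation of log2(FPKM + 0.1), as a description, since all points share libraries and groups. These were MRPS21 for GAPDH (0.994), KIAA1522 for ACTB (0.999), AL355312.3 for B2M (0.978), CAV2 for PPIA (0.997), RC3H2 for TBP (0.993), AP2A1 for GUSB (0.967), STAU1 for YWHAZ (0.993) and SMS for TFRC (0.989). KIAA1522 was at a mean of 3.95 FPKM with siCtrl, 20.9 with siCyclinK#1 and 13.8 with siCyclinK#2, a wider change than that of ACTB. STAU1, which encodes an RNA-binding protein, was at 42.7, 60.2 and 30.5, on both sides of siCtrl like YWHAZ.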
